A study of Bos taurus with 9 samples.

Results

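The expression of 33 genes that p53 switches on or that regulate p53 was followed while bovine ear fibroblasts (BEFs) were turned into chemically induced adipocyte-like cells (CiADCs). All 33 symbols were found, on 34 of the 21512 entries of the deposited gene table. CCNG1 had a second entry, the cyclin-G1-like locus LOC789192. SESN1, BTG2 and TRIAP1 are spelled Sesn1, Btg2 and Triap1 in the table and were matched without regard to case. The entry named FAS (282488) is the death receptor gene and not fatty acid synthase. The entry named TNFRSF10D (784541) has only a locus number in RefSeq, while the table's TNFRSF10B (782274) is called TNFRSF10D there, so the naming of this receptor is uncertain. Numbers in parentheses after a gene name are NCBI Gene IDs.

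The 3 groups were wild-type BEFs on day 0, CiADCs-3d and CiADCs-6d, with 3 samples each. BEFs grew out of pieces of ear margin tissue and were kept in DMEM with fetal bovine serum. CiADCs were the same cells in N2B27 medium with 10 µM RepSox, which blocks the TGF-beta type I receptor kinase, 500 µg/mL VPA, a histone deacetylase inhibitor, and 1 µM TTNPB, a retinoic acid receptor agonist. No sample was kept in its old medium for 3 or 6 days, so compounds, medium and time cannot be told apart. The study's text speaks of biological repetition, but neither it nor the labels say that the samples of a group were separate cultures or animals, so p-values measure the spread between these samples, which may be technical. Counts per sample summed to values between 21819164 and 24071574 for BEFs, between 18509236 and 23656340 for CiADCs-3d, and between 18641503 and 21341132 for CiADCs-6d. The CiADCs samples numbered 1 stood apart on the second principal component of all genes, at -18.8 on day 3 beside -46.8 and -39.8, and at 11.6 on day 6 beside 38.8 and 40.7. Of 10 adipocyte markers, the summed level ranged between 27.7 and 33.6 CPM (counts scaled to library size) for BEFs, between 44.2 and 57.3 CPM for CiADCs-3d, and between 33.3 and 43.6 CPM for CiADCs-6d. Of the 9 that could be tested, 4 were higher and 2 lower on day 3 than on day 0, and 6 were higher and 2 lower on day 6. Of all tested genes, 30.9% were higher and 29.1% lower on day 3, and 35.6% and 31.9% on day 6. The markers called higher on both days were LPL, at 3.19, 16.5 and 7.54 CPM on average on days 0, 3 and 6, PPARG at 4.02, 12.9 and 6.26 CPM, CFD at 4.42, 7.35 and 12.4 CPM, and ADIPOQ at 1.15, 4.85 and 3.97 CPM. CEBPA, at 0.522, 0.479 and 2.41 CPM, and DGAT2, at 0.411, 0.838 and 1.67 CPM, were called higher on day 6. FABP4, at 10.9, 5.34 and 0.863 CPM, and CIDEC, at 1.08, 0.169 and 0.0488 CPM, were lower on both days, and PLIN1 averaged 4.71, 3.66 and 3.56 CPM and was not called.

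The transcription factor p53 is held low in unstressed cells by MDM2, a ubiquitin ligase that marks it for degradation, and by the related MDM4, which masks its activation domain. Stress signals release p53, which then activates genes for cell cycle arrest, DNA repair, cell death and metabolism. MDM2 is itself a p53 target, so the pathway contains a negative feedback loop, and in fibroblasts it is best known for arrest and senescence.

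Most p53 genes were higher in CiADCs, and more so on day 6 than on day 3. Of the 31 genes with enough reads to be tested, 21 were higher and 4 lower in CiADCs-3d than in BEFs at an adjusted p under 0.05 (edgeR quasi-likelihood test, Benjamini-Hochberg over all genes). Among all 14020 tested genes, 30.9% were higher and 29.1% lower in this comparison. In CiADCs-6d against BEFs, 26 p53 genes were higher and 4 lower, beside 35.6% and 31.9% of all tested genes. In CiADCs-6d against CiADCs-3d, 21 were higher and 0 lower, beside 14.4% and 13.6% of all tested genes. None of the 31 was lower at an unadjusted p under 0.05 either, or by DESeq2. In bulk samples, fewer cells of a type and less RNA per cell cannot be told apart.

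The p53 genes as a group shifted upwards. They were chosen with earlier results of these data known, so the list was described beside all genes and not tested as a group. The median log2 fold change of the p53 genes was 0.66 on day 3 and 1.27 on day 6 against BEFs, and 0.65 on day 6 against day 3. The medians of all tested genes were 0.01, 0.03 and 0.01. When the log2 fold change also had to reach 1 in size, 9 p53 genes were higher and 3 lower on day 3, where 18.2% and 9.94% of all tested genes passed. On day 6, 19 were higher and 2 lower, beside 21.9% and 13.4% of all genes. Between the 2 days, 8 were higher and 0 lower on day 6, beside 4.09% and 3.22%. For 20 of the 31 genes (64.5%), every CiADCs-6d sample lay above every CiADCs-3d sample and these in turn above every BEFs sample, an order seen in 1170 of all tested genes (8.35%). The groups share the BEFs samples, so the day 3 and day 6 values are not independent of each other.

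**Figure D1:**
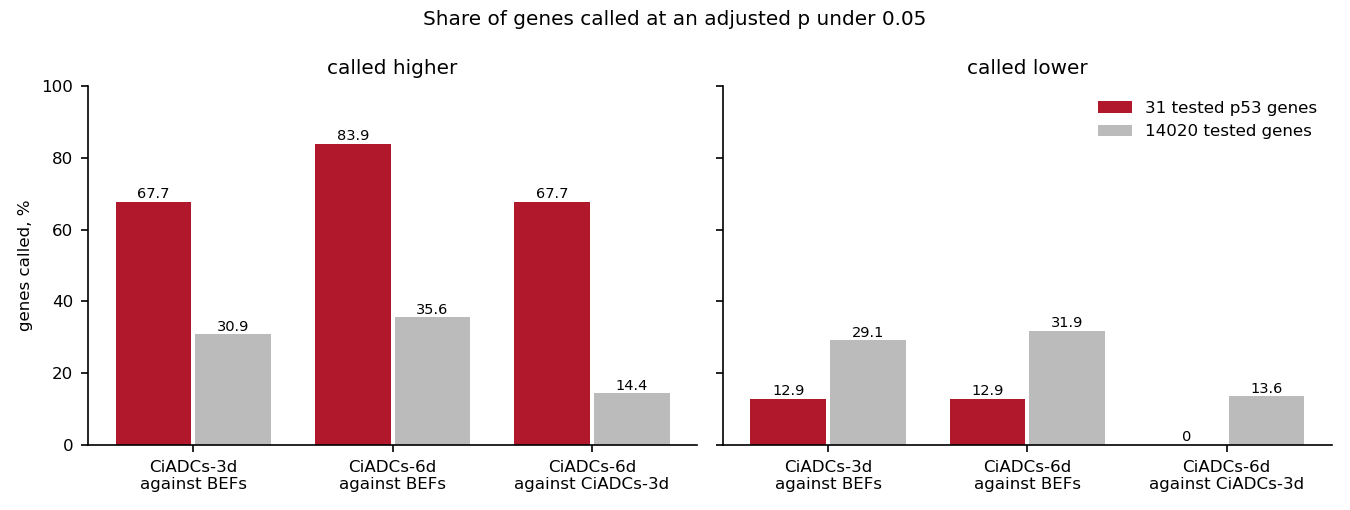
The bars give the share of genes (in %) called higher (left panel) or lower (right panel) at an adjusted p under 0.05, for the 31 tested p53 genes and for all 14020 tested genes. The p53 genes had 67.7%, 83.9% and 67.7% called higher in the 3 comparisons, against 30.9%, 35.6% and 14.4% of all genes.

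Without both CiADCs samples numbered 1, a choice made after the data were seen, 20, 26 and 23 p53 genes were higher and 4, 4 and 0 lower in the 3 comparisons. Of all genes tested in that fit, 33.7%, 37.5% and 22.8% were higher and 31.7%, 35.8% and 26.0% lower. The summed level of 10 fibroblast markers, all detected, lay between 61869 and 64579 CPM for BEFs, between 23152 and 34170 CPM for CiADCs-3d, and between 15935 and 21215 CPM for CiADCs-6d. The fall of the sum was carried by COL1A1, COL1A2 and VIM (log2 -1.84, -1.57 and -2.24 on day 3). Of the 10, 5 were lower on day 3 and 7 on day 6, while PDGFRA and PDGFRB were higher on day 3 (log2 0.90 and 0.70, adjusted p = 8.95e-05 and 0.00982), and COL3A1 was not called on either day (0.21 and -0.24). The summed level of 4 endothelial markers lay between 10.7 and 15.5 CPM for BEFs, between 307.9 and 456 CPM for CiADCs-3d, and between 190.9 and 316 CPM for CiADCs-6d. This sum was carried by VWF, at 7.75, 367 and 244.7 CPM on average on days 0, 3 and 6, while CDH5 averaged 0.436, 0.0177 and 0.0849 CPM. Of the 2 endothelial markers that could be tested, 1 was higher and 0 lower on day 3, and 1 was higher and 1 lower on day 6. Of 4 leukocyte markers, PTPRC had 0 counts in every sample and CD3E averaged 0.045, 0.0162 and 0.046 CPM. CD68 averaged 0.595, 3.84 and 6.53 CPM and CSF1R 0.118, 0.462 and 1.08 CPM, and both were higher on day 3 (6.40- and 3.71-fold, adjusted p = 0.000265 and 0.0327) and on day 6 (10.8- and 8.83-fold, adjusted p = 2.39e-05 and 0.000718). For 5 cartilage markers the sum lay between 332.5 and 338.8 CPM for BEFs. It lay between 59.1 and 71.4 CPM for CiADCs-3d and between 39.9 and 58.5 CPM for CiADCs-6d. Of the 3 cartilage markers that could be tested, 1 was higher and 2 lower than in BEFs on each day. Beside these marker counts, 30.9% of all tested genes were higher and 29.1% lower on day 3, and 35.6% and 31.9% on day 6. The part of the marker changes in the p53 gene values was not tested.

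Of the 6 tested genes grouped as p53 regulators and feedback genes, some of which restrain p53, 5 were higher on day 3 and 6 on day 6. All 6 were higher on day 6 than on day 3. The shares were 83.3%, 100% and 100%, beside 30.9%, 35.6% and 14.4% of all tested genes. MDM2 (540378) had 82.4, 88.1 and 85.1 CPM in BEFs, 200.01, 142 and 142 CPM in CiADCs-3d, and 384, 346 and 277 CPM in CiADCs-6d. The 3 groups did not overlap. The log2 fold change of MDM2 was 0.92 ± 0.15 (standard error) on day 3 (adjusted p = 0.000236) and 1.98 ± 0.16 on day 6 (adjusted p = 3.24e-07). MDM4 (514225) had 55.7, 64.1 and 58.1 CPM in BEFs, 301, 259 and 235 CPM in CiADCs-3d, and 403, 617 and 462 CPM in CiADCs-6d. Each sample of a later day was above each of an earlier day. MDM4 was thus 4.46-fold higher in CiADCs-3d and 8.32-fold higher in CiADCs-6d than in BEFs (log2 2.16 ± 0.16 and 3.06 ± 0.16, adjusted p = 2.15e-07 and 1.1e-08). In FPKM, which is also scaled to the transcript lengths assigned to the gene, the ratios of the means were 3.53 and 6.40.

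PPM1D (514005) encodes the phosphatase WIP1, which removes activating phosphates from p53 and its kinases. It had 5.68, 5.59 and 5.95 CPM in BEFs, 25.1, 15.2 and 16.1 CPM in CiADCs-3d, and 50.1, 61.5 and 54.2 CPM in CiADCs-6d, with no overlap between groups. On day 6 this was the highest fold change of the 6 genes in this group (9.61-fold, log2 3.26 ± 0.19, adjusted p = 2.08e-08). PPM1D also differed most between the CiADCs days of all 31 genes (log2 1.56 ± 0.17, adjusted p = 0.000167). CCNG1 (281671), cyclin G1, directs the phosphatase PP2A to MDM2. It averaged 283 ± 8.71 CPM in BEFs, 439 ± 2.80 CPM in CiADCs-3d and 718 ± 49.8 CPM in CiADCs-6d (SD, n = 3 each). FBXW7 (540932), the substrate receptor of a ubiquitin ligase for cyclin E and MYC, averaged 12.8 ± 1.19, 16.4 ± 1.27 and 24.1 ± 1.14 CPM on days 0, 3 and 6. Its day 3 difference (log2 0.35 ± 0.12, adjusted p = 0.0235) was small and lost the call in limma on log2(FPKM + 1), with a log2 fold change of 0.15 (adjusted p = 0.170). It also lost the call without BEFs replicate 1 (adjusted p = 0.0937), BEFs replicate 3 (0.0836) or CiADCs-3d replicate 1 (0.0544).

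TRIAP1 (525164), a mitochondrial protein that counters apoptosis, averaged 8.002 ± 0.179 CPM in BEFs, 8.18 ± 1.45 CPM in CiADCs-3d and 12.2 ± 2.41 CPM in CiADCs-6d. It was not called on day 3 (log2 0.03 ± 0.18, adjusted p = 0.902) and rose on day 6 (0.61 ± 0.18, adjusted p = 0.00994). The day 6 call was lost without CiADCs-6d replicate 3 (adjusted p = 0.0517). Its call between the days (0.58 ± 0.18, adjusted p = 0.0328) was lost without any of 7 of the 9 samples, all but the CiADCs samples numbered 1 (adjusted p from 0.0501 to 0.158). The second entry of CCNG1, LOC789192, had 51 counts over the 9 samples and between 0 and 10 in each, and was not tested. How the authors' counting shared reads between CCNG1 and this similar locus is not given in the sources used here, so the split between them is uncertain.

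**Figure D2:**
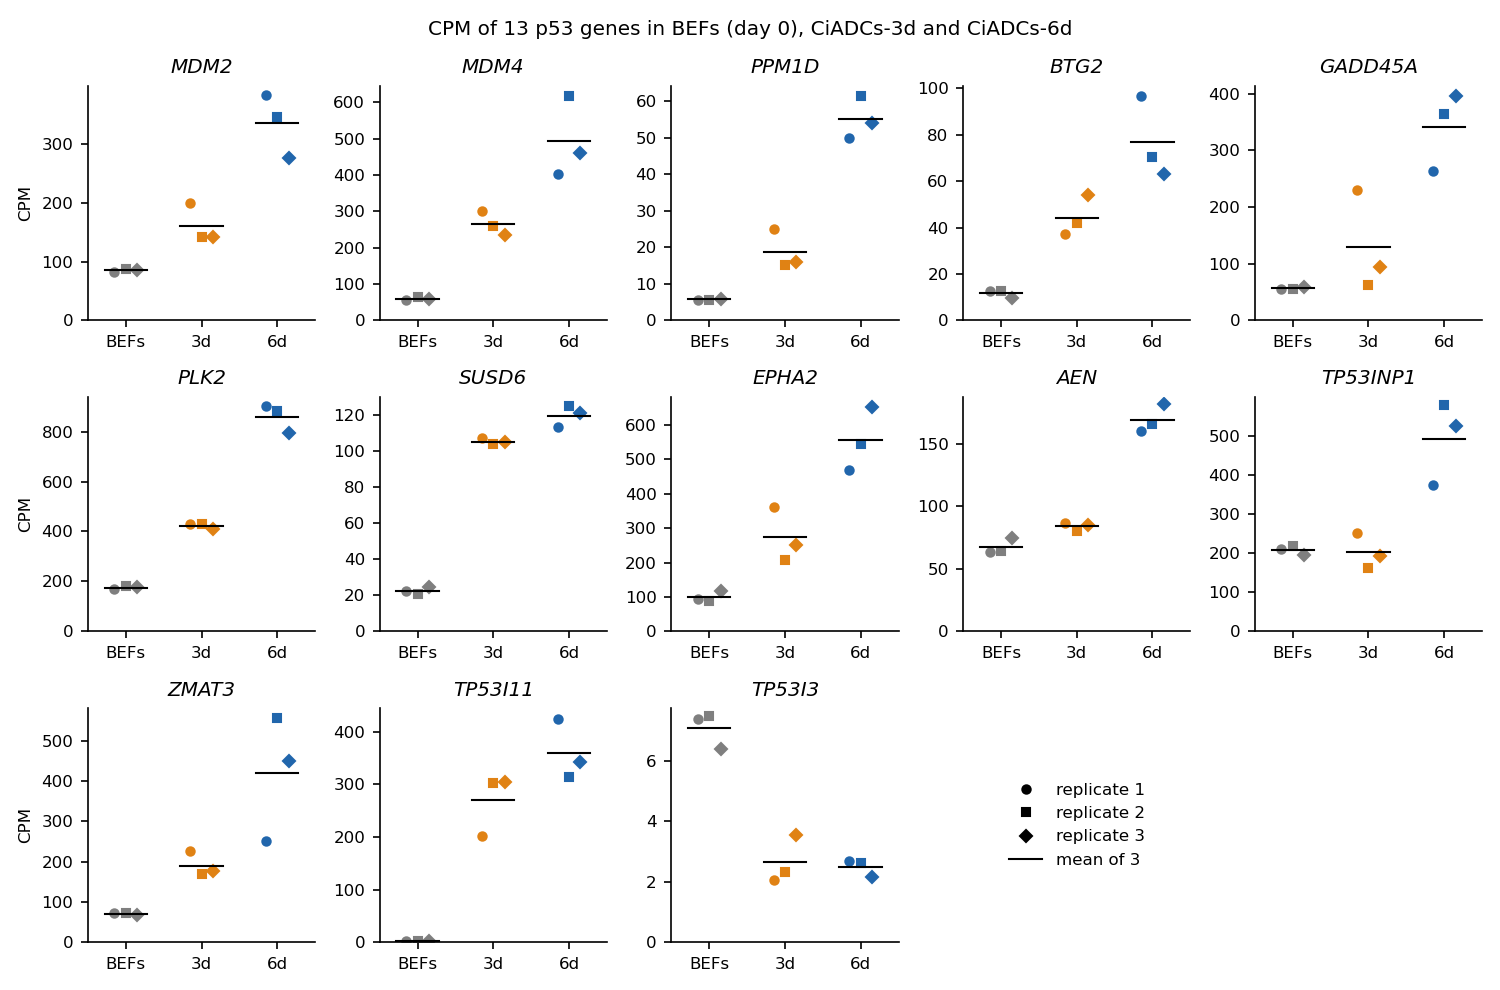
Each panel shows the CPM of 1 p53 gene in the 9 samples, with BEFs, CiADCs-3d and CiADCs-6d from left to right, 1 symbol per replicate number and a line at the mean of 3. The scale starts at 0 in every panel. TP53I3 alone of the 13 genes was lower in both CiADCs groups than in BEFs.

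Genes of arrest and growth control were the group with the highest median log2 fold changes, 1.27 on day 3 and 2.40 on day 6. Of 7 genes, 6 were higher (85.7%) and only PLK3 was lower (14.3%) on both days. Of all tested genes, 30.9% were higher and 29.1% lower on day 3, and 35.6% and 31.9% on day 6. Between the days, 5 of the 7 were higher on day 6 (71.4%, beside 14.4% of all genes). BTG2 (539364) encodes an antiproliferative protein that binds the CCR4-NOT deadenylase. It had 12.7, 12.7 and 9.73 CPM in BEFs, 37.0, 41.9 and 54.0 CPM in CiADCs-3d, and 96.6, 70.6 and 63.0 CPM in CiADCs-6d, and the groups did not overlap. BTG2 rose 3.79-fold by day 3 and 6.55-fold by day 6 (log2 1.92 ± 0.19 and 2.71 ± 0.19, adjusted p = 3.25e-06 and 1.38e-07). SUSD6 (510837), a membrane protein gene activated by p53 in human and mouse cells, had 22.4, 20.6 and 24.8 CPM in BEFs, 107, 104 and 105 CPM in CiADCs-3d, and 113, 125 and 121 CPM in CiADCs-6d. Its samples were close together within each group. SUSD6 was not called between the 2 CiADCs days (log2 0.19 ± 0.09, adjusted p = 0.153), against 2.22 ± 0.10 on day 3 over BEFs (adjusted p = 2.95e-09).

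The polo-like kinases PLK2 and PLK3, both stress-responsive, went in opposite directions against BEFs. PLK2 (539449) had 168, 180.4 and 177 CPM in BEFs, 432, 430.0 and 409.7 CPM in CiADCs-3d, and 902, 882 and 793 CPM in CiADCs-6d. The groups were far apart relative to their spread. Its log2 fold change was 1.27 ± 0.09 on day 3 (adjusted p = 2.03e-07), 2.29 ± 0.10 on day 6 (adjusted p = 1.45e-09) and 1.02 ± 0.09 between the days (adjusted p = 6.91e-05). PLK3 (504282) averaged 20.3 ± 3.62 CPM in BEFs, 8.93 ± 2.53 CPM in CiADCs-3d and 13.8 ± 1.44 CPM in CiADCs-6d. PLK3 was lower on day 3 (log2 -1.19 ± 0.20, adjusted p = 0.000234) and less so on day 6 (-0.56 ± 0.19, adjusted p = 0.0207). The difference between the days passed the test (0.63 ± 0.20, adjusted p = 0.0343). The day 6 call of PLK3 was lost without BEFs replicate 3 (adjusted p = 0.101), CiADCs-6d replicate 2 (0.0535) or CiADCs-6d replicate 3 (0.0633), and its call between the days without any of BEFs replicate 2 and the 5 CiADCs samples other than CiADCs-3d replicate 1 (adjusted p from 0.0527 to 0.138).

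GADD45A (505463), a growth arrest and DNA damage response gene, was the most uneven gene on day 3. It had 55.6, 54.6 and 58.7 CPM in BEFs, 230.4, 61.6 and 94.7 CPM in CiADCs-3d, and 263, 364 and 396 CPM in CiADCs-6d. CiADCs-3d replicate 1 lay near the CiADCs-6d samples and the other 2 nearer to BEFs. The log2 fold change was 1.19 ± 0.36 on day 3 (adjusted p = 0.0126), and 0.50 (adjusted p = 0.0356) without that replicate. On day 6 it was 2.60 ± 0.37 (adjusted p = 5.85e-05). Between the days it was 1.40 ± 0.36 (adjusted p = 0.0135), 2.08 without CiADCs-3d replicate 1, and not called without CiADCs-3d replicate 3 (adjusted p = 0.0619) or CiADCs-6d replicate 3 (0.0628). EPHA2 (512798), an ephrin receptor tyrosine kinase, had 93.8, 89.5 and 118 CPM in BEFs, 362, 206 and 249.7 CPM in CiADCs-3d, and 467, 545 and 653 CPM in CiADCs-6d. EPHA2 also had its highest day 3 value in replicate 1, with no overlap between groups (log2 1.44 ± 0.20 and 2.47 ± 0.20 for the 2 days, adjusted p = 5.24e-05 and 5.11e-07). CCNG2 (512960), the growth-inhibitory cyclin G2, averaged 9.17 ± 1.85, 15.5 ± 0.929 and 18.6 ± 2.94 CPM on days 0, 3 and 6, and was called against BEFs on both days only.

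**Figure D3:**
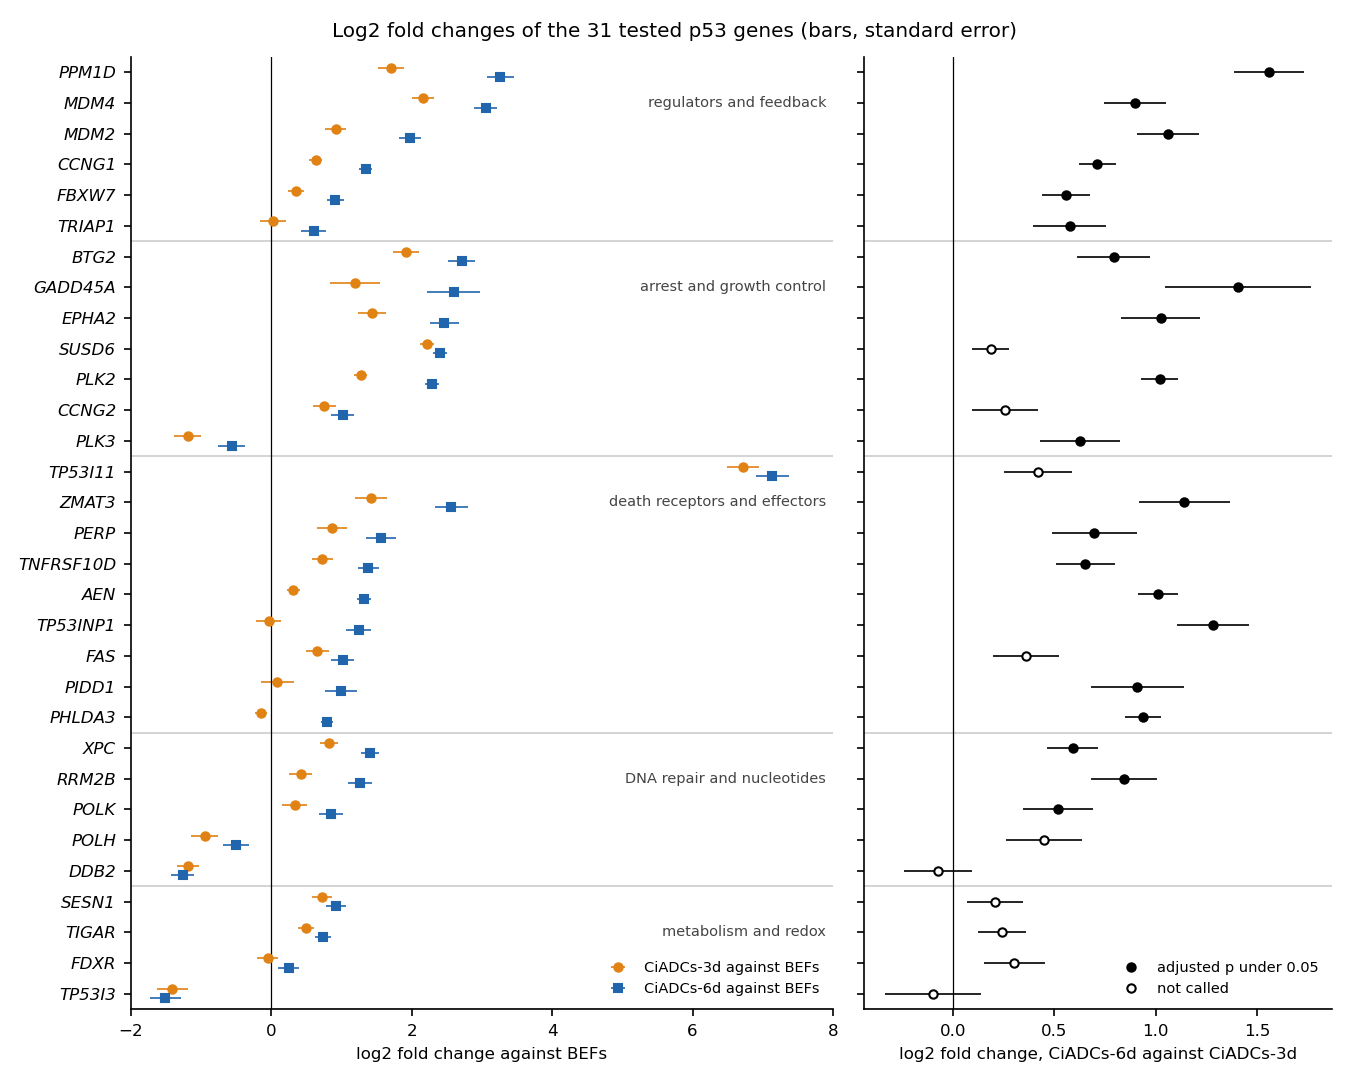
The left panel shows the log2 fold changes of CiADCs-3d (circles) and CiADCs-6d (squares) against BEFs, and the right panel those of CiADCs-6d against CiADCs-3d, for the 31 tested p53 genes grouped by role, with bars of 1 standard error. TP53I11 lies far to the right at 6.72 and 7.14, and PLK3, POLH, DDB2 and TP53I3 lie left of 0 on both days.

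All 9 tested genes of cell death were higher on day 6, beside 35.6% of all tested genes. On day 3, 6 of the 9 were higher (66.7%, beside 30.9%) and the other 3 not called. Between the days, 7 were higher on day 6 (77.8%, beside 14.4%). TP53I11 (515682), a p53-induced gene whose protein is less well characterised, had by far the highest fold change of the set. It had 3.12, 2.46 and 2.09 CPM in BEFs, 203, 302 and 303 CPM in CiADCs-3d, and 424, 314 and 342 CPM in CiADCs-6d. It was nearly silent in BEFs, 105-fold higher in CiADCs-3d (log2 6.72 ± 0.23, adjusted p = 3.59e-10) and 141-fold higher in CiADCs-6d (7.14 ± 0.23, adjusted p = 2.17e-10). The lowest BEFs count behind these values was 47. The 2 CiADCs days did not differ beyond the test's threshold (0.42 ± 0.17, adjusted p = 0.0833).

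ZMAT3 (538512), an RNA-binding zinc finger protein, had 72.1, 71.9 and 68.6 CPM in BEFs, 225, 169 and 176 CPM in CiADCs-3d, and 251, 556 and 450.5 CPM in CiADCs-6d. Replicate 1 was the highest on day 3 and the lowest on day 6, so the 2 days came close there without overlapping. Its log2 fold change was 1.42 ± 0.23 on day 3 (adjusted p = 0.000179), 2.56 ± 0.24 on day 6 (adjusted p = 1.27e-06) and 1.14 ± 0.22 between the days (adjusted p = 0.00375). AEN (614749), an apoptosis-enhancing nuclease, rose mainly after day 3. It had 63.0, 64.2 and 74.5 CPM in BEFs, 86.5, 80.0 and 85.0 CPM in CiADCs-3d, and 159.8, 165 and 181 CPM in CiADCs-6d. The step on day 3 was small (log2 0.32 ± 0.10, adjusted p = 0.0148), and was not called without BEFs replicate 1 (adjusted p = 0.0823) or BEFs replicate 2 (0.0738), while that between the days was 1.01 ± 0.10 (adjusted p = 8.5e-05).

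TP53INP1 and PHLDA3 were not called on day 3 and rose between day 3 and day 6. TP53INP1 (782667), a nuclear stress protein with a role in autophagy, had 209, 217 and 195 CPM in BEFs, 252, 162 and 193 CPM in CiADCs-3d, and 373, 578 and 525 CPM in CiADCs-6d. Its BEFs and CiADCs-3d samples overlapped (log2 -0.04 ± 0.18, adjusted p = 0.872), and all CiADCs-6d samples were above both (1.28 ± 0.18 over CiADCs-3d, adjusted p = 0.000577). PHLDA3 (112441889), which competes with the kinase AKT for membrane lipids, averaged 278 ± 3.90 CPM in BEFs, 252 ± 3.49 CPM in CiADCs-3d and 482 ± 31.0 CPM in CiADCs-6d. Every CiADCs-3d sample of PHLDA3 was below every BEFs sample, but the difference did not pass (log2 -0.14 ± 0.09, adjusted p = 0.18). From day 3 to day 6 it rose by 0.94 ± 0.09 (adjusted p = 7.03e-05). PIDD1 (100137737), the scaffold of a caspase-activating complex, followed the same calls, averaging 10.0 ± 1.00, 10.7 ± 2.68 and 19.98 ± 6.38 CPM on days 0, 3 and 6. From day 3 to day 6 its log2 value increased by 0.91 ± 0.23 (adjusted p = 0.0127). This was not called without CiADCs-3d replicate 2 (adjusted p = 0.0543) or replicate 3 (0.0542), and was 0.58 (adjusted p = 0.0337) without CiADCs-6d replicate 1.

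FAS, the death receptor, averaged 28.7 ± 0.821 CPM in BEFs, 45.2 ± 11.6 CPM in CiADCs-3d and 58.0 ± 8.35 CPM in CiADCs-6d. It was called on both days (log2 0.66 ± 0.16 and 1.02 ± 0.16, adjusted p = 0.00409 and 0.000142). Between the days FAS was not called (0.36 ± 0.16, adjusted p = 0.113), but was without CiADCs-3d replicate 1 (0.55, adjusted p = 0.00535). The entry named TNFRSF10D, in human a decoy receptor for the death ligand TRAIL, averaged 28.8 ± 1.01, 47.7 ± 11.1 and 74.9 ± 7.26 CPM on days 0, 3 and 6 (log2 1.38 ± 0.15 on day 6, adjusted p = 5.18e-06). The entry named TNFRSF10B, which RefSeq calls TNFRSF10D, averaged 119, 226 and 338 CPM. Both receptor entries were higher on both days, so the direction did not depend on which of them carries the name. PERP (509485), a desmosomal membrane protein, averaged 20.1 ± 4.33, 36.6 ± 12.9 and 59.2 ± 2.95 CPM on days 0, 3 and 6. Its log2 fold change was 0.86 ± 0.21 on day 3 (adjusted p = 0.00408), or 0.57 without CiADCs-3d replicate 1. Its change between the days (0.70 ± 0.21, adjusted p = 0.0282) was not called without CiADCs-3d replicate 2 or 3 (adjusted p = 0.106 and 0.115) or CiADCs-6d replicate 2 or 3 (0.0754 and 0.0759).

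EDA2R (100301324), an ectodysplasin receptor, had 1 count in the 9 samples together. In BEFs and CiADCs-3d it had 0 counts, which allows up to 3 counts per library, or 0.125 to 0.159 CPM. This limit covers counting error only. SPATA18 (615729), a protein of mitochondrial quality control, had 63 counts in all and between 1 and 15 per sample. A change of these 2 genes was not detectable at this depth.

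Of 5 DNA repair genes, 2 were higher and 2 lower on day 3 (40.0% each, against 30.9% and 29.1% of all genes), and 3 were higher and 2 lower on day 6 (60.0% and 40.0%, against 35.6% and 31.9%). XPC (524274), which recognises helix-distorting lesions, averaged 147 ± 15.5 CPM in BEFs, 260.0 ± 14.2 CPM in CiADCs-3d and 391 ± 63.6 CPM in CiADCs-6d (log2 0.82 ± 0.13 and 1.41 ± 0.13, adjusted p = 0.00013 and 1.1e-06). DDB2 (519357), the damage sensor that acts before XPC in repair of ultraviolet lesions, went the other way. DDB2 fell to 4.50 ± 0.634 CPM in CiADCs-3d and 4.28 ± 0.247 CPM in CiADCs-6d, against 10.2 ± 0.517 CPM in BEFs (log2 -1.19 ± 0.16 and -1.26 ± 0.16, adjusted p = 4.82e-05 and 2.36e-05). Every CiADCs sample of DDB2 was below every BEFs sample, and the 2 CiADCs days overlapped.

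The translesion polymerases copy past damaged bases. POLH (513606) averaged 61.0 ± 6.26, 31.7 ± 4.36 and 43.3 ± 12.2 CPM on days 0, 3 and 6, and POLK (541218) 20.9 ± 1.79, 26.3 ± 5.21 and 37.6 ± 8.55 CPM. POLH was lower on day 3 (log2 -0.95 ± 0.19, adjusted p = 0.000946) and on day 6 (-0.50 ± 0.19, adjusted p = 0.0324). The day 6 call was lost without BEFs replicate 1 or 2 (adjusted p = 0.0830 and 0.0792), and the value was -0.30 (adjusted p = 0.0499) without CiADCs-6d replicate 1. Without that replicate POLH was also called higher on day 6 than on day 3 (0.62, adjusted p = 0.00297), which it was not with all samples (0.45, adjusted p = 0.0951). POLK was higher on day 6 (0.85 ± 0.17, adjusted p = 0.000901). It was not called on day 3 (0.33 ± 0.17, adjusted p = 0.117), but was without CiADCs-6d replicate 2 (adjusted p = 0.0475). The POLK call between the days (0.52 ± 0.17, adjusted p = 0.0430) was lost without any of 7 of the 9 samples, all but CiADCs-3d replicate 1 and CiADCs-6d replicate 1 (adjusted p from 0.0589 to 0.196). RRM2B (528960), the p53-inducible small subunit of ribonucleotide reductase, averaged 7.13 ± 0.488, 9.56 ± 1.36 and 17.1 ± 2.93 CPM on days 0, 3 and 6. Its rise on day 6 was clear (log2 1.27 ± 0.16, adjusted p = 2.52e-05). The day 3 call (0.42 ± 0.17, adjusted p = 0.0449) was lost without any BEFs sample and without CiADCs-3d replicate 1 or 3 (adjusted p from 0.0684 to 0.129).

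The metabolic targets had the lowest median change between the CiADCs days, at 0.22 on the log2 scale over 4 genes. SESN1 (538226), a sestrin that restrains mTORC1, averaged 7.21 ± 0.124, 11.9 ± 1.09 and 13.7 ± 1.63 CPM on days 0, 3 and 6. TIGAR (615392), a phosphatase that lowers glycolytic flux, averaged 15.5 ± 1.04, 21.9 ± 0.262 and 25.9 ± 3.22 CPM. Both passed the test against BEFs on day 3 and day 6. The log2 values were 0.72 ± 0.14 and 0.93 ± 0.14 for SESN1 (adjusted p = 0.000869 and 9.58e-05) and 0.50 ± 0.12 and 0.74 ± 0.12 for TIGAR (adjusted p = 0.00341 and 0.000152). TP53I3 (508875), a quinone oxidoreductase, had 7.36, 7.47 and 6.40 CPM in BEFs, 2.07, 2.33 and 3.53 CPM in CiADCs-3d, and 2.67, 2.61 and 2.17 CPM in CiADCs-6d. All 6 CiADCs samples of TP53I3 were below the BEFs samples (log2 -1.41 ± 0.22 and -1.51 ± 0.22, adjusted p = 0.000165 and 7.97e-05), on the lowest counts of the set, with a minimum of 39 in a sample. FDXR (282604), the ferredoxin reductase of mitochondria, was the only tested gene with no call in any comparison and averaged 9.62 ± 0.775, 9.30 ± 1.42 and 11.5 ± 0.824 CPM on days 0, 3 and 6.

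Levels between genes were compared in FPKM, which is scaled to length. In BEFs the highest mean levels were those of PHLDA3 (144 ± 1.07 FPKM), CCNG1 (121 ± 4.42) and PLK2 (62.8 ± 2.60). In CiADCs-6d they were those of PLK2 (316 ± 26.6 FPKM), CCNG1 (314 ± 27.3), GADD45A (273 ± 53.5) and PHLDA3 (256 ± 15.1). The first 2 of these differed by less than their spread. TP53I11 had the lowest mean level of the 31 genes in BEFs (0.887 ± 0.181 FPKM) and reached 128 ± 20.3 FPKM in CiADCs-6d. TP53I3 was at the bottom in both CiADCs groups (1.93 ± 0.549 and 1.84 ± 0.237 FPKM).

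**Figure D4:**
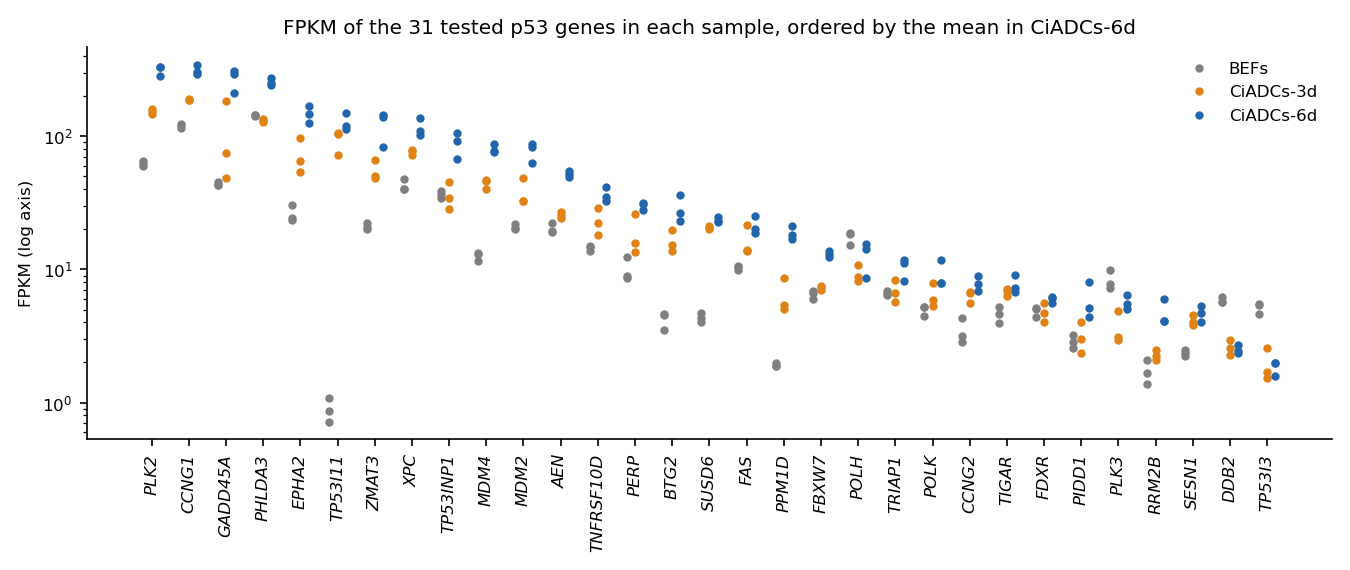
Points show the FPKM (log axis) of the 31 tested p53 genes in each of the 9 samples, coloured by group and ordered from left to right by the mean in CiADCs-6d. TP53I11 spans the widest range, with 0.887 FPKM on average in BEFs and 128 FPKM in CiADCs-6d.

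The samples of a group differed more in CiADCs than in BEFs. The median coefficient of variation of the 31 genes was 7.34% on day 0, 16.1% on day 3 and 14.4% on day 6. The widest were PERP in BEFs (21.6%), GADD45A in CiADCs-3d (69.4%) and ZMAT3 in CiADCs-6d (37.0%). CiADCs-3d replicate 1 was the highest of its group for 22 of the 31 genes (71.0%), and for 39.7% of all tested genes. Per sample, the median log2 ratio of the p53 genes to the mean of BEFs was 0.63, 0.42 and 0.63 in CiADCs-3d and 1.26, 1.3 and 1.26 in CiADCs-6d, and between -0.02 and 0.02 in BEFs. Thus all 3 CiADCs-6d samples were above all 3 CiADCs-3d samples by this measure. It rests on the same genes and samples as the counts above and adds no separate support. The same median over all tested genes, with 0.1 added to each CPM, lay between -0.01 and 0.06 in the 9 samples.

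Of 23 genes of the p53 family and its upstream regulators, 4 were higher and 15 lower on day 3, and 4 were higher and 13 lower on day 6. On day 3 these were 17.4% and 65.2%, beside 30.9% and 29.1% of all tested genes. On day 6 they were 17.4% and 56.5%, beside 35.6% and 31.9%. Between the days, 2 were higher and 3 lower on day 6 (8.70% and 13.0%, beside 14.4% and 13.6% of all genes). The median log2 fold change of the 23 genes was -0.37 on day 3 and -0.29 on day 6. TP63 (615335), the p53 family member of epithelial progenitors, averaged 1.65 ± 0.464 CPM in BEFs, 13.4 ± 1.23 CPM in CiADCs-3d and 11.4 ± 1.91 CPM in CiADCs-6d. HIPK2 (510158), a kinase that phosphorylates p53 after severe damage, averaged 3.07 ± 0.599, 13.3 ± 0.451 and 18.3 ± 3.38 CPM. CDKN2A (616369), the locus of the CDK inhibitor p16 and of ARF, an inhibitor of MDM2, averaged 50.7 ± 2.86, 137 ± 10.7 and 128 ± 9.89 CPM. TP63, HIPK2 and CDKN2A each passed the test on days 3 and 6, and the day 6 values were, on the log2 scale, 2.79 ± 0.22, 2.58 ± 0.19 and 1.34 ± 0.10. Keratinocyte markers, 6 in number, summed to between 56.2 and 75.3 CPM for BEFs, between 91.3 and 117 CPM for CiADCs-3d, and between 88.1 and 100.7 CPM for CiADCs-6d, and their part in the TP63 level was not tested. Their sum was carried by CDH1 (log2 1.60 and 1.03, adjusted p = 2.03e-07 and 7.52e-06 on days 3 and 6), while KRT5 and KRT14 were lower on day 3 (log2 -1.04 and -0.96, adjusted p = 0.00341 and 0.0488) and not called on day 6 (0.04 and -0.21, adjusted p = 0.887 and 0.629). The genes lower on both days included the damage kinases ATR, CHEK1 and CHEK2.

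Of 34 further p53 targets found in the table, 18 were higher and 7 lower on day 3, and 22 were higher and 7 lower on day 6. On day 3 these were 52.9% and 20.6%, beside 30.9% and 29.1% of all tested genes. On day 6 they were 64.7% and 20.6%, beside 35.6% and 31.9%. Between the days, 13 were higher and 6 lower on day 6 (38.2% and 17.6%, beside 14.4% and 13.6% of all genes). The median log2 fold changes of the 34 were 0.50 and 0.88, below those of the 31 genes on both days and above those of all genes. CDKN1A (513497), the CDK inhibitor p21 and main arrest target of p53, had 209, 203 and 181 CPM in BEFs, 494, 331 and 365 CPM in CiADCs-3d, and 1123, 1196 and 1171 CPM in CiADCs-6d. The groups did not overlap (log2 1.00 ± 0.14, 2.56 ± 0.14 and, between the days, 1.55 ± 0.14, adjusted p = 5.12e-05, 1.68e-08 and 6.91e-05). BBC3 (782359), the death protein PUMA, averaged 4.11 ± 0.370, 24.9 ± 3.10 and 77.7 ± 2.22 CPM on days 0, 3 and 6 (log2 4.24 ± 0.13 on day 6, adjusted p = 1.6e-10). GDF15 (618677), a stress-induced secreted factor, averaged 9.36 ± 0.588, 73.6 ± 37.7 and 347 ± 69.3 CPM. PLTP (505640), a phospholipid transfer protein, averaged 8.06 ± 0.307, 191 ± 62.9 and 447 ± 179 CPM. IGFBP3 (282261), which binds insulin-like growth factors, peaked on day 3, with 55.2 ± 4.37, 6091 ± 816 and 2757 ± 701 CPM, and was lower on day 6 than on day 3 (log2 -1.14 ± 0.17, adjusted p = 0.00077). Targets that were lower on both days included THBS1, STEAP3 and SERPINB5.

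**Figure D5:**
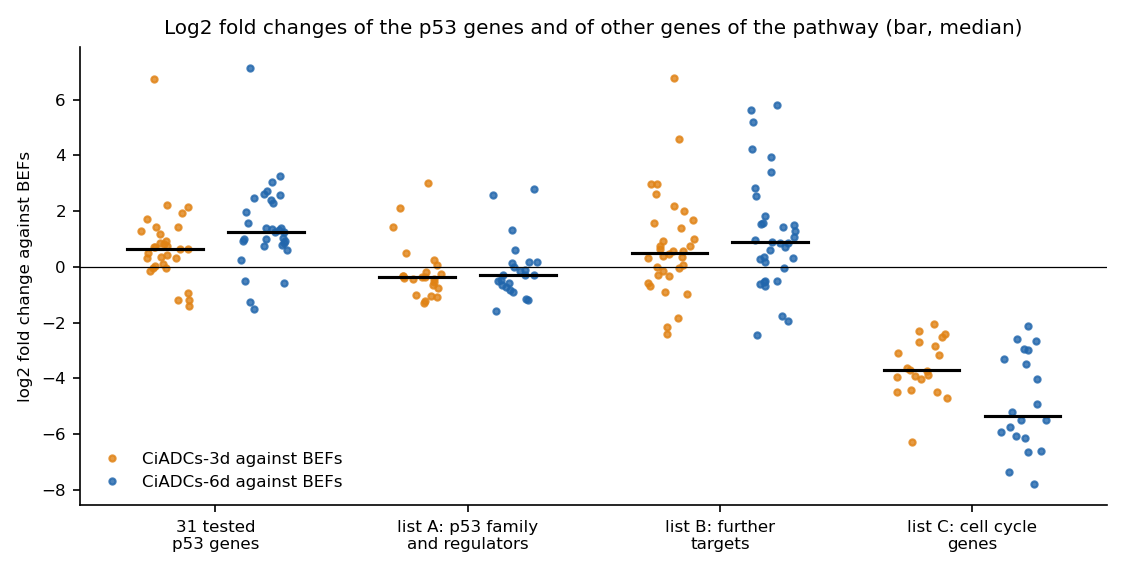
Points are the log2 fold changes of single genes against BEFs, for CiADCs-3d (left column of each pair) and CiADCs-6d (right column), with a bar at the median of each list. The medians on day 6 are 1.27 for the 31 tested p53 genes, -0.29 for the p53 family and upstream regulators (list A), 0.88 for further targets (list B) and -5.34 for cell cycle genes (list C).

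Cell cycle genes fell on both days. Such genes fall when p21 and the DREAM complex act, but whether this lay behind the fall here was not tested. All 20 in the list were lower on day 3 and on day 6, beside 29.1% and 31.9% of all tested genes. Their median log2 fold changes were -3.70 and -5.34, and 14 were lower still on day 6 than on day 3 (70.0%, beside 13.6% of all genes). None of the 20 was higher in any comparison by edgeR, at an unadjusted p under 0.05 or by DESeq2. MKI67 (513220), the proliferation marker Ki-67, averaged 588 ± 27.1 CPM in BEFs, 22.3 ± 9.72 CPM in CiADCs-3d and 5.83 ± 1.47 CPM in CiADCs-6d. A further 68 genes were those that the table annotates to the p53 signalling pathway of KEGG and that are not among the 33, of which 37 also stand in the lists above. Of the 61 that could be tested, 21 were higher and 28 lower on day 3, and 23 were higher and 27 lower on day 6. The shares higher, 34.4% and 37.7%, were near the 30.9% and 35.6% of all genes, and the shares lower were 45.9% and 44.3%, beside 29.1% and 31.9%. From day 3 to day 6, 18 of the 61 were higher and 13 lower (29.5% and 21.3%, beside 14.4% and 13.6% of all genes). The median log2 fold changes of the 61 were -0.31 on day 3, -0.18 on day 6 and 0.13 between the days. The largest changes among them were, besides IGFBP3, the falls of RRM2, CCNB1 and CCNB2, which encode a subunit of ribonucleotide reductase and the mitotic cyclins (log2 -7.79 ± 0.27, -6.08 ± 0.38 and -5.47 ± 0.30 on day 6).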

How the data were processed

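RNA was sequenced by the authors from 9 bovine samples. The deposited table gives expected counts per gene and sample, which the authors estimated from their aligned reads and did not normalize, and FPKM values, which the authors scaled to gene length and library size. The tools in the submitters’ processing notes are RSEM, HISAT2 (2.2.4), fastp (0.18.0) and StringTie (1.3.1), while the methods of the study name other tools. The labels describe ribosomal RNA removal and the methods oligo(dT) enrichment. Genome build and the use of strand are not given in the sources used here, so reads of overlapping antisense genes cannot be told apart. Of 21512 entries, 20582 matched RefSeq by Gene ID, including all 34 studied.

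Counts were rounded, filtered with filterByExpr of edgeR 4.0.16 (minimum count 10, minimum total 15, leaving 14020 genes), scaled by TMM and fitted for all 9 samples with 1 coefficient per group (glmQLFit, glmQLFTest). Adjusted p-values are Benjamini-Hochberg over all tested genes. Fold changes given as ± have the standard error of the model, and CPM and FPKM the SD of 3 samples. R 4.3.3, limma 3.58.1, DESeq2 1.42.0 and Python 3.11.15 were used. The scripts were tested on simulated data. No 2 libraries agreed within sampling noise. The 33 genes and the other lists were chosen with earlier results of these data known. TRIM22 was listed but not used here. Values of every sample are given for MDM2 and for genes with an absolute log2 fold change among the 8 largest of a comparison, with an adjusted p under 0.05 and at least 1 CPM in the higher group. The other genes named are CDKN1A, MKI67 and, of the lists of regulators, further targets and KEGG genes, up to 4 with the largest change on day 6 at 10 CPM or more, of which some values are not reported here; ATR, CHEK1, CHEK2, THBS1, STEAP3 and SERPINB5 were chosen after their values were seen. Alternatives were DESeq2, other scalings and filters, a fold threshold, limma on log2 FPKM, fits of 2 groups, a replicate block and leaving out each sample.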

Additional observations from a re-analysis of the deposited data

Results flagged for a closer look

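PHLDA3 and TP53INP1 had log2 fold changes of opposite sign against BEFs on day 3 and day 6, and the difference between the days was tested. It was 0.94 for PHLDA3 (adjusted p = 7.03e-05) and 1.28 for TP53INP1 (adjusted p = 0.000577), both higher in CiADCs-6d than in CiADCs-3d. Neither day 3 difference from BEFs passed the test by itself (log2 -0.14 and -0.04), so a fall on day 3 was not shown for either gene.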

How the results depend on the processing

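Of 132 log2 fold changes of single genes, 108 kept their direction and their side of the threshold under every alternative that was run. Over 2769 values under an alternative, 72 lost the call, 12 gained it and 9 changed sign, and none of those 9 was called. They were day 3 values of TP53INP1 (0.0051 with at least 10 counts in every sample, and -0.202 to 0.10 with 1 sample left out), TRIAP1 (-0.0849 without both CiADCs samples numbered 1, and -0.0880 to 0.140 with 1 sample left out), PIDD1 (-0.0936, and -0.0972 to 0.235 in the same way) and FDXR (-0.145 to 0.0472 with 1 sample left out), and values between the days of DDB2 (-0.205 to 0.0276) and TP53I3 (-0.282 to 0.165), both with 1 sample left out. The sign turned without CiADCs-3d replicate 1 for TRIAP1 and PIDD1, without CiADCs-3d replicate 2 for TP53INP1, FDXR and DDB2, and without CiADCs-3d replicate 3 for TP53I3. With 1 sample left out, 18 to 22 p53 genes were higher and 4 lower on day 3 (median 0.53 to 0.75), 25 to 26 higher and 3 to 4 lower on day 6 (median 1.17 to 1.28), and 15 to 22 higher and 0 lower between the days (median 0.55 to 0.68). In these fits, 27.0% to 33.0% of all genes were higher and 24.8% to 30.2% lower on day 3. On day 6 the shares were 32.2% to 36.2% and 28.5% to 33.2%, and between the days 7.07% to 17.1% and 7.58% to 20.7%. The fold threshold left 9 higher on day 3, 2 lower on day 6 and 8 higher between the days. In limma on log2(FPKM + 1) with no filter, which also takes in the 3 entries with few reads, the medians were 0.54 on day 3 and 1.04 on day 6. There 2 genes were lower on day 6, beside 24.8% of all genes, and GADD45A on day 3 was not called (adjusted p = 0.105). In limma on log2(FPKM + 0.1) the median between the days was 0.73. Without both CiADCs samples numbered 1, the median was 0.53 on day 3 and 0.74 between the days. The cause of these moves was not tested. The share of all genes called between the days ranged from 7.07% to 22.8% higher over the alternatives called by the adjusted p alone, and was 4.09% with the fold threshold. With entries spelled in capitals alone, a choice made after the data were seen, 28 genes were left. Of these 28, 19, 23 and 19 were higher and 4, 4 and 0 lower in the 3 comparisons of the main fit. There 30.9%, 35.6% and 14.4% of all tested genes were higher and 29.1%, 31.9% and 13.6% lower. Samples with the same replicate number did not deviate together (correlations from -0.37 to 0.15). The value of -0.37 was that of CiADCs-3d and CiADCs-6d replicate 1, which tended to deviate in opposite directions. Samples with different numbers had correlations from -0.14 to 0.28. With a replicate block, 20, 26 and 18 p53 genes were higher and 4, 3 and 0 lower. Of all genes in that fit, 29.4%, 34.3% and 11.5% were higher and 27.4%, 30.7% and 10.6% lower. With 3 samples per group, differences near the spread of the samples could not be resolved, and EDA2R, SPATA18 and LOC789192 had too few reads.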
